A study of Mus musculus with 10 samples.

Results

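The retinoid genes described here comprise 10 genes that make retinoic acid, carry it or its precursor, read it or break it down: Rdh10, Aldh1a1, Aldh1a2, Aldh1a3, Rbp4, Crabp1, Crabp2, Rara, Rarg and Cyp26b1. They were chosen by name from the 25239 gene symbols of a mouse RNA-seq count table. RNA was measured in cells that were sorted at postnatal day 7 from the calvarial sutures, where the flat bones of the skull meet. The labels place 5 libraries in a population called DDR2-plus, after the collagen receptor DDR2, and 5 in a population called PSC, which the labels do not expand. The genotype is given as WT for both populations, whereas the protocol names Ctsk-Cre mice, in which the promoter of the cathepsin K gene drives Cre recombinase. Both populations share this background. The sources used here give neither the sorting gates nor the animal behind each library. The p-values therefore measure the spread between these libraries, which may be technical. Library numbers are shared between the populations, and whether libraries of the same number have the same origin is not given. The main tests treated the libraries as unpaired.

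Retinoic acid is made from vitamin A in steps. Retinol is oxidised to retinaldehyde, chiefly by RDH10 in the embryo, and retinaldehyde to retinoic acid by the ALDH1A enzymes. Retinoic acid binds the nuclear receptors RARA, RARB and RARG, which act with RXR partners at direct repeats in DNA, and the CYP26 enzymes oxidise and so inactivate it. In human patients, loss of CYP26B1 function has been linked to craniosynostosis, the early closure of sutures, and in growing cartilage RARG is a main retinoic acid receptor.

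Depth ranged from 49843470 to 62021992 counts per DDR2-plus library and from 43419129 to 58270419 per PSC library. Levels are given as CPM, counts scaled for library size with TMM factors, and fold changes are DDR2-plus over PSC from edgeR's quasi-likelihood test with Benjamini-Hochberg adjustment over 15416 tested genes (threshold 0.05). Defining genes of sutural mesenchyme were present in both populations, with Prrx1 between 107 and 125 CPM in DDR2-plus and between 149 and 186 CPM in PSC, and Twist1 between 26.3 and 40.7 CPM in DDR2-plus and between 68.1 and 109 CPM in PSC. Of the genes behind the names, Ddr2 had 107 to 116 CPM in DDR2-plus and 134 to 160.3 CPM in PSC. Ctsk had 97.8 to 134 CPM in DDR2-plus and 278 to 314 CPM in PSC. Neither was absent from a population, and both were lower in DDR2-plus without overlap. Ddr2 was thus 1.36-fold lower in the population named after it (edgeR adjusted p = 0.000165), and Ctsk 2.74-fold lower (edgeR adjusted p = 4.36e-07). The populations also differed in the markers of other tissues. All 7 chondrocyte markers were higher in DDR2-plus, their summed level being 74993 to 105163 CPM there against 8652 to 21787 CPM in PSC, and all 6 tendon markers were lower, at 133 to 253 CPM in DDR2-plus against 2572 to 3146 CPM in PSC. Of 9 tested pineal and photoreceptor markers 8 were higher in DDR2-plus, at a sum of 134 to 200.5 CPM there against 5.40 to 8.38 CPM in PSC, with Aanat, Cdhr1 and Impg2 at 0 in PSC. The summed olfactory markers were at 324 CPM in DDR2-plus 5, 8.59 to 22.5 CPM in the rest of that population and at most 0.916 CPM in PSC. In bulk samples, fewer cells of a type and less RNA per cell cannot be told apart, and the part of these markers in the results on retinoid genes was not tested.

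All 10 retinoid genes passed the filter on low counts. Of these, 3 rose in DDR2-plus (Rbp4, Rarg and Cyp26b1), 3 fell (Aldh1a2, Crabp2 and Rara) and 4 did not pass the test (Rdh10, Aldh1a1, Aldh1a3 and Crabp1). Over all tested genes, 39.1% were called, 20.1% as higher and 19% as lower, so a call by itself was common between these populations. The libraries of the populations did not overlap for 5 of the 10 genes, against 30.1% of all tested genes. The median log2 fold change of the 10 genes was -0.20, and that of all tested genes 0.04. Library size alone in place of TMM scaling moved the median of all tested genes to 0.31, and the 6 calls among the retinoid genes held there as well.

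**Figure D1:**
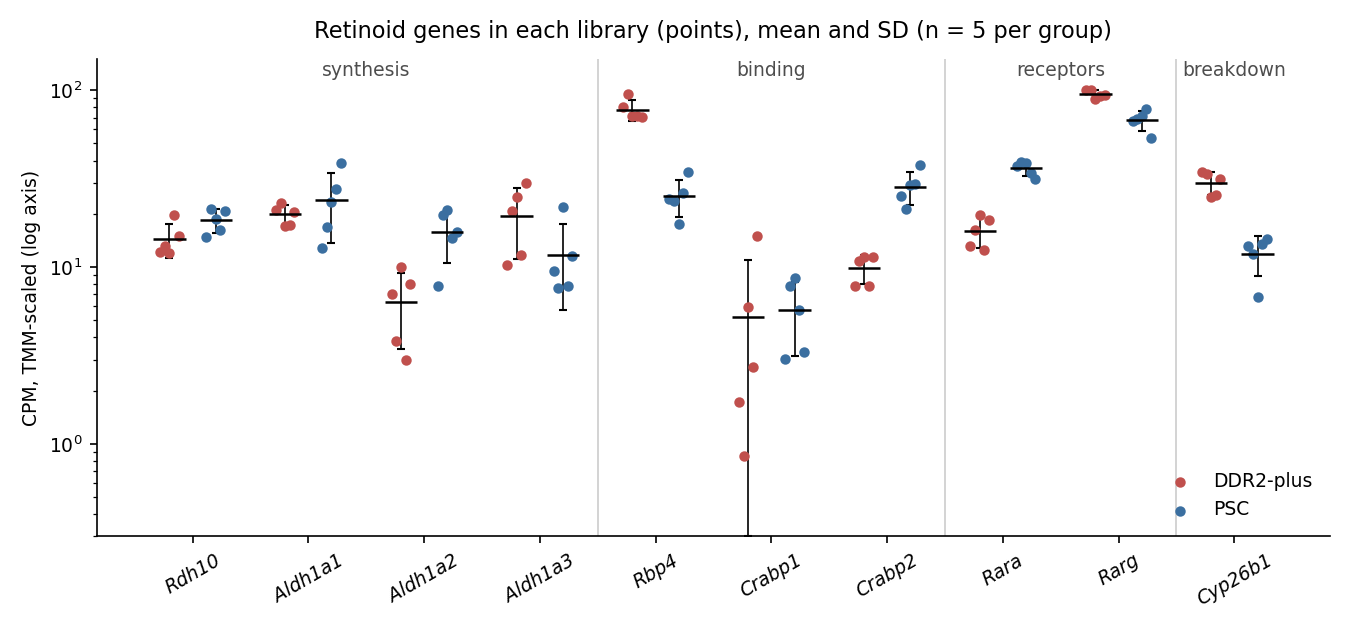
CPM of the 10 retinoid genes in each library on a log axis, DDR2-plus to the left of PSC for each gene, grouped by role, with the mean (line) and SD (bar, n = 5 per group). Points of the populations are apart for Rbp4, Crabp2, Rara, Rarg and Cyp26b1. The lower bar of Crabp1 in DDR2-plus runs off the axis, since its SD exceeds its mean.

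Among the genes of synthesis, Aldh1a2 fell in DDR2-plus, while Rdh10, Aldh1a1 and Aldh1a3 did not pass the test. Aldh1a2 (mm10 chromosome 9, 71215789 to 71296243, plus strand) encodes the retinaldehyde dehydrogenase that supplies most retinoic acid in the early embryo. It had 7.02, 3.83, 9.998, 2.99 and 7.99 CPM in DDR2-plus 1 to 5, against 7.78, 19.7, 20.9, 14.5 and 15.7 CPM in PSC 1 to 5. PSC 1 was the low library of its group and lay within the DDR2-plus range, so the populations overlapped at that library. Aldh1a2 was 2.47-fold lower in DDR2-plus (log2 fold change -1.30, SE 0.34; edgeR adjusted p = 0.00899, n = 5 each). Its adjusted p was between 0.000709 and 0.0279 over 19 alternative settings. Of 10 markers of the meninges, a tissue known to express Aldh1a2, 2 were higher, 4 lower and 4 without a call, with 39.1% of all tested genes called. Their median log2 fold change was -0.91, against 0.04 for all tested genes. Slc6a13, a transporter gene among them, averaged 0.287 ± 0.354 CPM in DDR2-plus libraries against 4.31 ± 1.73 CPM in PSC libraries, without overlap, whereas Foxc2, their most abundant gene, averaged 61.7 ± 7.03 CPM in DDR2-plus libraries against 28.2 ± 9.19 CPM in PSC libraries (SD, n = 5 each). The summed markers were at 142 to 173 CPM in DDR2-plus and 113 to 186 CPM in PSC, and their part in the Aldh1a2 result was not tested.

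The other ALDH1A genes encode enzymes of the same reaction. Aldh1a1 had 21.1, 23.1, 17.1, 17.3 and 20.6 CPM in DDR2-plus, against 12.7, 16.8, 23.3, 27.6 and 38.6 CPM in PSC, so PSC spanned the whole DDR2-plus range. Its log2 fold change was -0.26 (SE 0.24; edgeR adjusted p = 0.43) and 0.0040 under library size alone. Aldh1a3 had 10.2, 20.7, 24.9, 11.8 and 29.8 CPM in DDR2-plus, against 9.48, 7.59, 21.8, 7.81 and 11.5 CPM in PSC. The high PSC library was PSC 3, and DDR2-plus 3 was also among the high ones. The log2 fold change of Aldh1a3 was 0.74 (SE 0.35; edgeR adjusted p = 0.11). It passed in 3 of 19 alternative settings, among them the one without PSC 3 (log2 fold change 1.10, edgeR adjusted p = 0.0157) and library size alone (edgeR adjusted p = 0.0299).

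Rdh10, the gene of the retinol dehydrogenase upstream of these enzymes (chromosome 1, 16105774 to 16133734, plus strand), had 12.2, 13.2, 12.0, 19.7 and 15.1 CPM in DDR2-plus, against 14.9, 21.2, 18.8, 16.3 and 20.8 CPM in PSC. DDR2-plus 4 stood above the other DDR2-plus libraries and within the PSC range. The log2 fold change was -0.35 (SE 0.16; edgeR adjusted p = 0.111). Without DDR2-plus 4 it was -0.49 and passed as lower (edgeR adjusted p = 0.0234).

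A share within each library needs no scaling between libraries. Aldh1a2 took 18.3%, 8.03%, 19.2%, 9.32% and 13.7% of the counts of the 3 ALDH1A genes in DDR2-plus 1 to 5, against 25.9%, 44.7%, 31.7%, 29.1% and 23.9% in PSC 1 to 5. The populations did not overlap. The mean share was 13.7% ± 5.08 in DDR2-plus and 31.1% ± 8.18 in PSC (SD, n = 5 each; two-sided exact permutation test, p = 0.00794, which is the lowest p open to 5 against 5 libraries, and 0.0106 adjusted over 4 such quantities). Per exonic base, where the short Aldh1a2 exons count for more, the mean share was 24.8% in DDR2-plus and 48.5% in PSC. Per coding base it was 13.8% in DDR2-plus and 31.0% in PSC. Aldh1a2 had passed as lower by itself, so this share is no separate evidence of its shift. In PSC 1, where the CPM of Aldh1a2 lay within the DDR2-plus range, Aldh1a1 was at its lowest of the PSC libraries, 12.7 CPM.

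**Figure D2:**
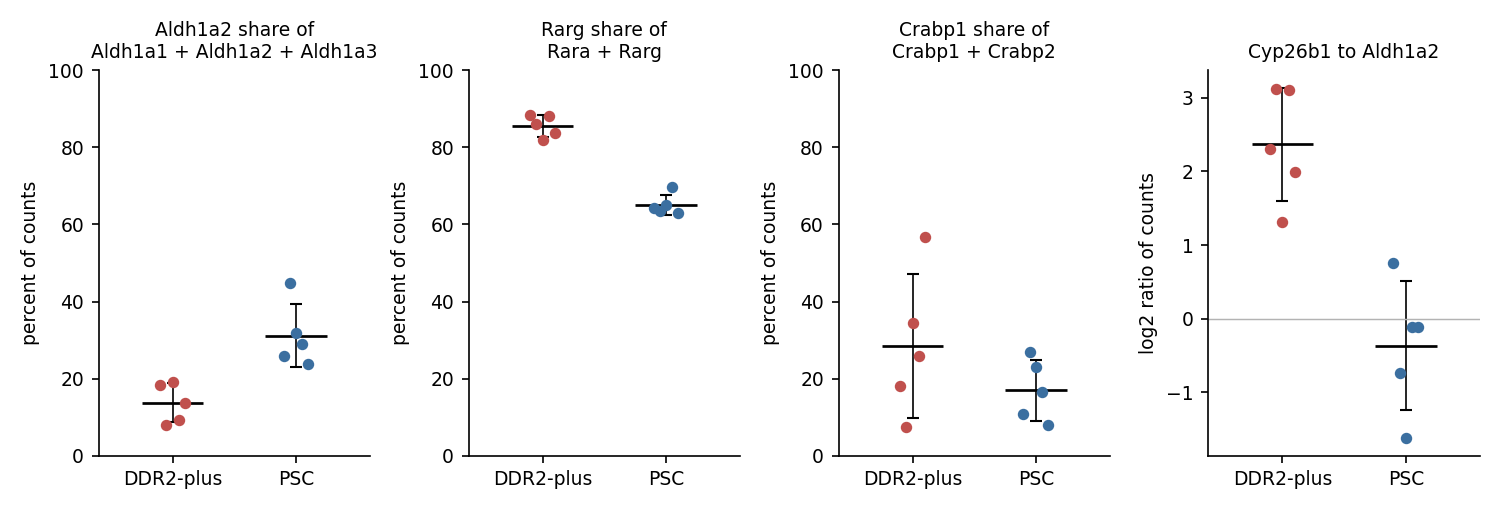
Quantities taken within each library, DDR2-plus left and PSC right, as points with mean (line) and SD (bar, n = 5 per group): the Aldh1a2 share of ALDH1A counts, the Rarg share of Rara and Rarg counts and the Crabp1 share of Crabp1 and Crabp2 counts in percent, and the log2 ratio of Cyp26b1 to Aldh1a2 counts. The populations are apart in all panels other than that of Crabp1.

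The carrier genes went separate ways: Rbp4 rose, Crabp2 fell and Crabp1 did not pass the test. Rbp4 (chromosome 19, 38116629 to 38125281, minus strand) encodes the secreted protein that carries retinol in plasma. It had 80.1, 95.0, 71.0, 71.5 and 70.8 CPM in DDR2-plus, against 24.2, 23.6, 17.5, 26.4 and 34.3 CPM in PSC. Every DDR2-plus library was above every PSC library, which holds for 15.6% of all tested genes. Rbp4 was 3.08-fold higher (log2 fold change 1.62, SE 0.16; edgeR adjusted p = 5.75e-06, n = 5 each). Its coefficient of variation within DDR2-plus was 13.5%. Its DDR2-plus mean was 79.4 CPM without DDR2-plus 5, the library with the highest olfactory sum. The pineal and photoreceptor sum and the chondrocyte sum were higher in every DDR2-plus library than in any PSC library. Leaving out DDR2-plus 5 does not address those tissues. The part of other tissues in the Rbp4 result was not tested.

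Crabp2 (chromosome 3, 87948666 to 87953376, plus strand) encodes a cytosolic protein that hands retinoic acid to its nuclear receptors. It had 7.82, 10.8, 11.3, 7.85 and 11.4 CPM in DDR2-plus, against 25.2, 21.4, 29.0, 29.3 and 37.7 CPM in PSC. Every DDR2-plus library was below every PSC library, as in 14.6% of all tested genes. Crabp2 was 2.90-fold lower in DDR2-plus (log2 fold change -1.54, SE 0.17; edgeR adjusted p = 2.17e-05, n = 5 each).

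Crabp1 (chromosome 9, 54764748 to 54773110, plus strand), whose product also binds retinoic acid in the cytosol, was the most variable of the 10 genes in DDR2-plus. It had 1.74, 0.856, 5.92, 2.72 and 14.9 CPM in DDR2-plus, against 3.03, 7.83, 8.66, 5.75 and 3.31 CPM in PSC. The high value was that of DDR2-plus 5, the library with the highest olfactory sum. The mean was 5.23 CPM in DDR2-plus, 2.81 CPM without that library, and 5.72 CPM in PSC. The log2 fold change was -0.13 (SE 0.64; edgeR adjusted p = 0.895) and -1.03 without DDR2-plus 5 (edgeR adjusted p = 0.161). It was above 0 in 6 of 19 alternative settings, among them library size alone, and Crabp1 passed in 0 of them. Of the counts of both CRABP genes, Crabp1 took 28.5% ± 18.6 in DDR2-plus and 17.0% ± 7.92 in PSC (SD, n = 5 each; two-sided exact permutation test, p = 0.254), a difference within the spread between libraries. That difference of 11.5 percentage points was 4.40 without DDR2-plus 5.

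The retinoic acid receptor genes moved in opposite directions, Rara down and Rarg up in DDR2-plus. Rara (chromosome 11, 98927818 to 98974942, plus strand) had 13.1, 16.3, 19.7, 12.5 and 18.4 CPM in DDR2-plus, against 37.1, 39.4, 38.6, 34.0 and 31.6 CPM in PSC. The populations were well apart, and Rara was 2.26-fold lower in DDR2-plus (log2 fold change -1.17, SE 0.14; edgeR adjusted p = 2.79e-05, n = 5 each). Rarg (chromosome 15, 102234938 to 102257517, minus strand) had 101, 101, 88.7, 92.9 and 94.0 CPM in DDR2-plus, against 66.7, 68.8, 71.7, 78.0 and 53.5 CPM in PSC. Again there was no overlap, and Rarg was 1.41-fold higher in DDR2-plus (log2 fold change 0.49, SE 0.09; edgeR adjusted p = 0.00108, n = 5 each). The rise of Rarg was the smallest of the 6 called changes.

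The balance between the receptors was also taken within each library. Rarg took 88.5%, 86.0%, 81.8%, 88.1% and 83.6% of the counts of Rara and Rarg in DDR2-plus 1 to 5, against 64.3%, 63.5%, 65.0%, 69.6% and 62.9% in PSC 1 to 5. The mean share was 85.6% ± 2.87 in DDR2-plus and 65.1% ± 2.68 in PSC (SD, n = 5 each; two-sided exact permutation test, p = 0.00794, and 0.0106 adjusted over 4 such quantities). Rara had passed as lower and Rarg as higher, so this share is no separate evidence of their shift. The third receptor gene, Rarb, is described below with the genes that answer to retinoic acid.

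Cyp26b1 (chromosome 6, 84571414 to 84593908, minus strand), which encodes a retinoic acid hydroxylase, rose in DDR2-plus. It had 34.6, 33.4, 24.9, 25.7 and 31.7 CPM in DDR2-plus, against 13.1, 11.8, 6.78, 13.5 and 14.5 CPM in PSC. PSC 3 was the low PSC library, and no PSC library reached the DDR2-plus range. Cyp26b1 was 2.52-fold higher in DDR2-plus (log2 fold change 1.33, SE 0.19; edgeR adjusted p = 0.000121, n = 5 each). The log2 ratio of Cyp26b1 to Aldh1a2 counts within a library was 2.30, 3.13, 1.32, 3.10 and 1.99 in DDR2-plus 1 to 5, against 0.75, -0.73, -1.63, -0.11 and -0.12 in PSC 1 to 5. The difference between the means was 2.74. The ratio sets a gene called higher against one called lower and was chosen after its values were seen, so it is given as a description only. Other genes of these roles went elsewhere, with Aldh1a3 at a log2 fold change of 0.74 without a call, and Cyp26a1, described below, lower.

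**Figure D3:**
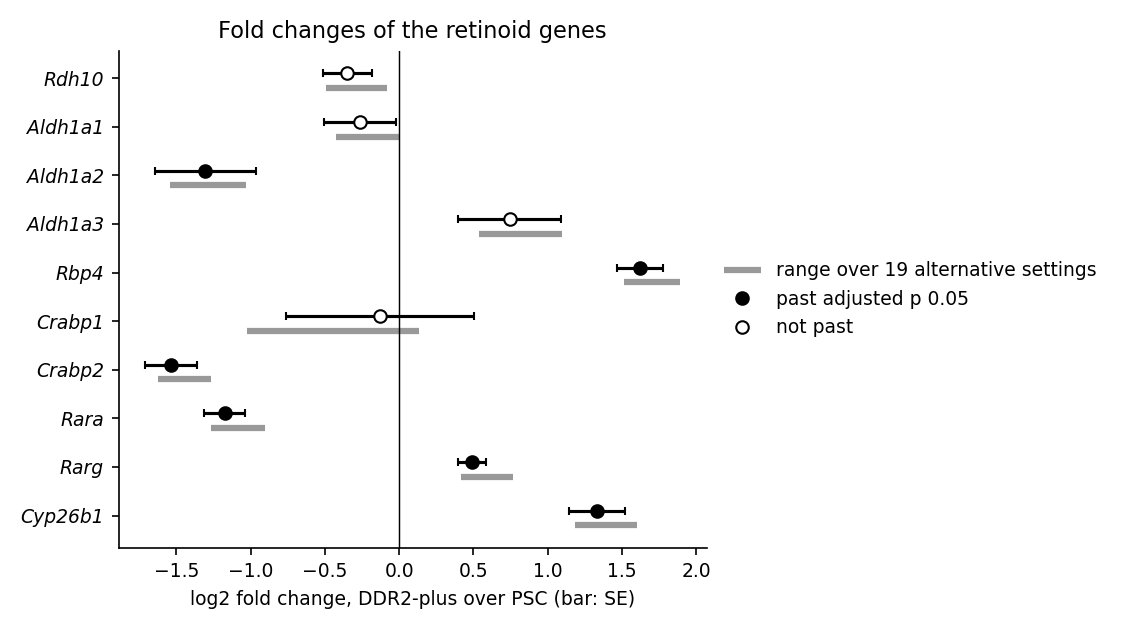
Log2 fold change of each retinoid gene, DDR2-plus over PSC, with its SE (point and bar; filled points passed the edgeR adjusted p of 0.05), and the range of the fold change over 19 alternative settings (grey). Aldh1a2, Crabp2 and Rara lie below 0 and Rbp4, Rarg and Cyp26b1 above 0 over the whole range, while the ranges of Aldh1a1 and Crabp1 reach past 0.

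Levels of different genes were compared as CPM per kilobase of exon. In DDR2-plus, Rbp4 stood first at 57.9 ± 7.78 and Rarg second at 22.4 ± 1.21 CPM per kilobase (SD, n = 5 each), and their libraries did not overlap with each other or with those of the gene ranked next. From Crabp2, at 7.44 ± 1.40 CPM per kilobase, down to Aldh1a2, at 2.81 ± 1.29 CPM per kilobase and last in DDR2-plus, neighbours in the order overlapped. In PSC the order began with Crabp2, Rbp4 and Rarg at 21.6 ± 4.58, 18.8 ± 4.50 and 15.9 ± 2.12 CPM per kilobase, which overlapped from one to the next. Rarg and the next gene, Rara at 8.28 ± 0.752 CPM per kilobase, did not overlap in PSC. Aldh1a2 stood sixth there at 6.95 ± 2.29 CPM per kilobase. Cyp26b1 was last in PSC at 2.23 ± 0.566 CPM per kilobase, overlapping with Aldh1a3 above it. In DDR2-plus, Cyp26b1 had 5.62 ± 0.837 CPM per kilobase and the fifth place. The order depends on the length used, since Cyp26b1 has 5352 exonic and 1536 coding bases, and Aldh1a2 2264 and 1554.

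**Figure D4:**
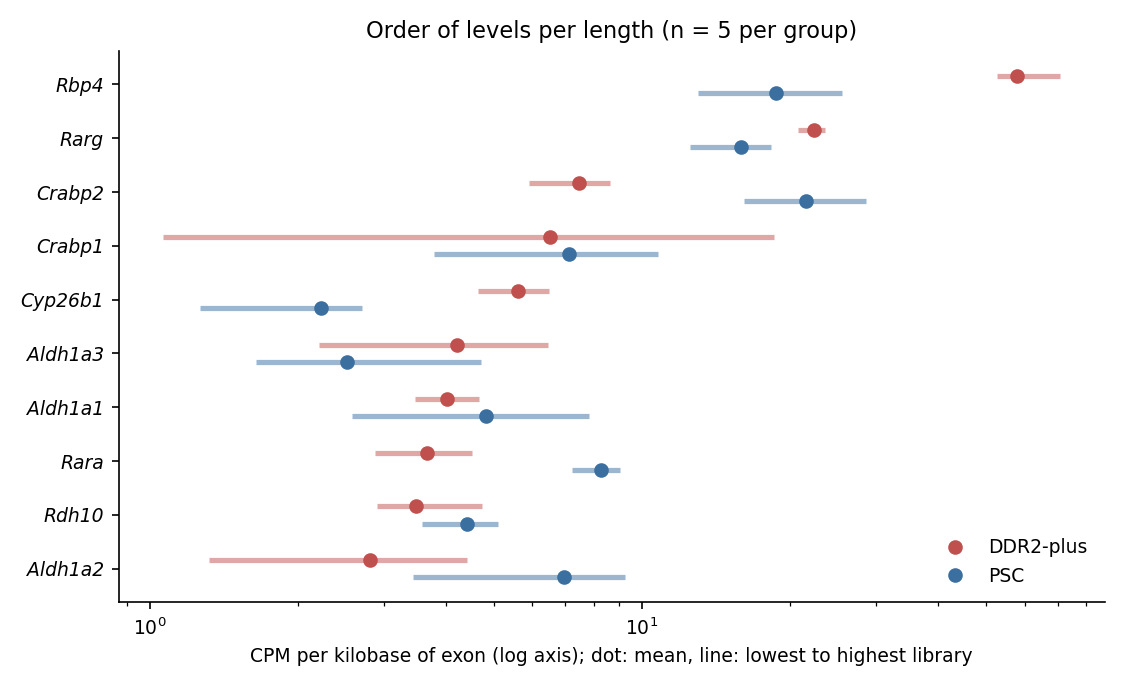
Mean level (dot) and lowest to highest library (line) of each retinoid gene in CPM per kilobase of exon on a log axis, DDR2-plus above PSC, ordered by the DDR2-plus mean (n = 5 per group). Rbp4 leads in DDR2-plus at 57.9 CPM per kilobase, and Crabp2, Rbp4 and Rarg overlap at the top in PSC.

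Among genes that are known to rise with retinoic acid, more were lower than higher in DDR2-plus. Of 17 listed genes, 13 were tested, and 8 of these fell, 1 rose and 4 did not pass, with 39.1% of all tested genes called. With library size alone, 6 fell and 4 rose. The median log2 fold change of the 13 was -1.48, and that of all tested genes 0.04. Tbx1, at the median, had 202 counts in all 10 libraries. The list shares 5 genes with the list of the other pathway genes, and among the 8 tested genes it does not share, 4 fell, 1 rose and 3 did not pass. Of the genes outside the test, Stra8 had 0 counts in every library, where 3 counts would be 0.0439 to 0.0747 CPM, while Hoxb1 had 0 counts in DDR2-plus and 6 in PSC, and Cdx1 had 28 counts in DDR2-plus and 26 in PSC.

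Cyp26a1 and Rarb are the textbook direct targets on that list, since their promoters hold retinoic acid response elements. Cyp26a1, a second retinoic acid hydroxylase, had 0.744, 0.664, 1.96, 1.54 and 2.83 CPM in DDR2-plus, against 5.33, 10.3, 7.73, 10.1 and 7.20 CPM in PSC. There was no overlap, and Cyp26a1 was 5.25-fold lower in DDR2-plus (log2 fold change -2.39, SE 0.41; edgeR adjusted p = 0.000491), opposite in direction to Cyp26b1. Rarb, the receptor whose own gene answers to retinoic acid, had 6.11, 5.24, 11.8, 4.88 and 7.13 CPM in DDR2-plus, against 16.2, 13.1, 14.4, 10.2 and 11.0 CPM in PSC. The populations overlapped through DDR2-plus 3, and Rarb was 1.84-fold lower (log2 fold change -0.88, SE 0.25; edgeR adjusted p = 0.0133), a call that was lost under library size alone (log2 fold change -0.60, edgeR adjusted p = 0.0691). Rarb shares 38.4% of its exonic bases with antisense genes, among them Top2b, and the libraries do not mark strand, so its counts may hold reads of those genes.

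The RefSeq promoter windows of these genes (GRCm38.p6, 250 bases before to 50 after a transcript start) are shown with that of Cyp26b1 because the direct repeat that retinoic acid receptors bind can be read in them. Direct repeats of the half-site AGGTCA, with AGTTCA as one variant, GGGTCA as another and GGTTCA as the last, in any pair and with 1, 2 or 5 bases between, were searched on both strands, and capitals mark the matched repeats.
Rarb, chr14:16575427-16575726, minus strand: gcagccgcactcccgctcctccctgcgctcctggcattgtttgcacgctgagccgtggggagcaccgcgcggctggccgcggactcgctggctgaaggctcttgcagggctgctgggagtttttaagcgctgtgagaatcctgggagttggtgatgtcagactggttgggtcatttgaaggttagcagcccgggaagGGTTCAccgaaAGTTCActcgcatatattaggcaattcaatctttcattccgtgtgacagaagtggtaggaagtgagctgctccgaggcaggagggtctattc
Cyp26a1, chr19:37697558-37697857, plus strand: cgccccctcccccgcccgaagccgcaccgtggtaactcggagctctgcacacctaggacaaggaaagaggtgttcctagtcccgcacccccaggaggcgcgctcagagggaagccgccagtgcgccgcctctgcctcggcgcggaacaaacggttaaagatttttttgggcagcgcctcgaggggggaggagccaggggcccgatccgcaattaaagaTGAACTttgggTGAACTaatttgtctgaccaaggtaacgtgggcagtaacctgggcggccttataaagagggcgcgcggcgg
Cyp26b1, chr6:84593761-84594060, minus strand: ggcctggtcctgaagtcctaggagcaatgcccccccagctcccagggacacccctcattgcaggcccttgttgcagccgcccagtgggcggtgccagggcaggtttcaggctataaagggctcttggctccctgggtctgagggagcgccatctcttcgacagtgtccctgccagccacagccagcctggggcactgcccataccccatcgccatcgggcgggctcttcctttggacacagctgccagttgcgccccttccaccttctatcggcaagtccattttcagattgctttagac
The Rarb window held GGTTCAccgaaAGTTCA, a repeat with 5 bases between that begins at position -53 relative to the start. The Cyp26a1 window held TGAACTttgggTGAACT at position -32, which reads as AGTTCA repeated with 5 bases between on the opposite strand. A repeat of any pair of these half-sites with 1, 2 or 5 bases between was found in 81 of 22381 windows of genes in the table (0.362%). Of the 10 retinoid genes, 7 had windows in the RefSeq table, 13 in all, and 0 of these windows held a repeat, Cyp26b1 among them, which says no more than that these letters are not in these windows.

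Other genes on the response list fell as well. Stra6, the membrane receptor that takes up retinol from RBP4, had 6.45, 4.67, 4.48, 5.04 and 3.35 CPM in DDR2-plus, against 28.7, 22.3, 18.6, 18.3 and 11.6 CPM in PSC, without overlap, and was 4.15-fold lower (log2 fold change -2.05, SE 0.24; edgeR adjusted p = 2.98e-05). It thus moved opposite to Rbp4. The transcriptional repressor gene Hic1 was 4.32-fold lower, Rarres2, which encodes the chemoattractant chemerin, 3.89-fold, Rarres1 3.28-fold and the homeobox gene Meis2 1.69-fold (edgeR adjusted p at most 0.00608 in each case). Rarres2 shares 33.6% of its exonic bases with an antisense gene, and Meis2 lost its call under library size alone (edgeR adjusted p = 0.0505).

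Tgm2, the transglutaminase gene, was the exception among the called response genes. It averaged 141 ± 11.6 CPM in DDR2-plus libraries against 70.0 ± 8.53 CPM in PSC libraries, 2.01-fold higher in DDR2-plus (SD over 5 libraries each; edgeR adjusted p = 4.29e-06), and shares 21.8% of its exonic bases with antisense genes. Dhrs3, the retinaldehyde reductase that opposes RDH10, averaged 61.3 ± 3.22 CPM in DDR2-plus libraries against 57.1 ± 4.91 CPM in PSC libraries and did not pass (log2 fold change 0.10, SE 0.08; edgeR adjusted p = 0.322).

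**Figure D5:**
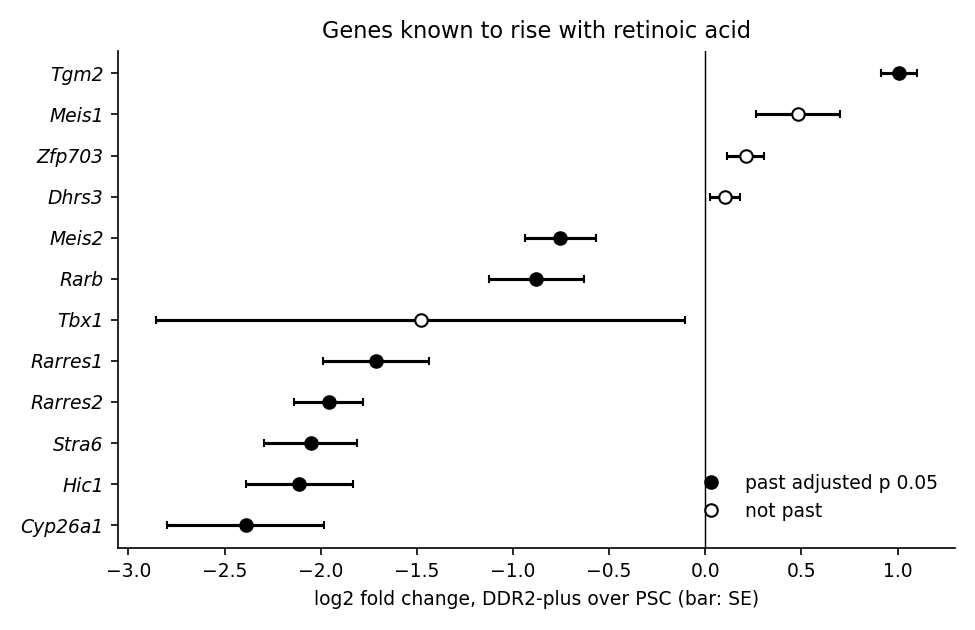
Log2 fold change, DDR2-plus over PSC, with SE, of 12 of the 13 tested genes known to rise with retinoic acid, in order of the fold change (filled points passed the edgeR adjusted p of 0.05). Of those drawn, 7 lie below 0 and passed, Cyp26a1 lowest at -2.39, and Tgm2 passed above 0 at 1.01.

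The remaining genes of the pathway split evenly. Of 45 listed genes in the table, 34 were tested, and 10 rose, 10 fell and 14 did not pass, with 39.1% of all tested genes called. Their median log2 fold change was -0.07, and that of all tested genes 0.04. With library size alone, 12 rose and 5 fell.

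Among the genes that rose there were Rbp3, Rlbp1 and Rdh5 of the visual cycle and Ttr of plasma transport. These were higher in the population where most pineal, photoreceptor and choroid plexus markers were higher as well. Rbp3, the retinoid carrier between photoreceptors and pigment epithelium, had 16164 counts over the DDR2-plus libraries and 2 over the PSC libraries. Rlbp1, the gene of the retinaldehyde-binding protein CRALBP, averaged 21.0 ± 3.30 CPM in DDR2-plus against 1.54 ± 1.00 CPM in PSC, and Rdh5, a retinol dehydrogenase of the pigment epithelium, averaged 14.3 ± 1.78 CPM in DDR2-plus against 3.45 ± 1.61 CPM in PSC (SD over 5 libraries each; edgeR adjusted p = 2.03e-05 and 0.000234). In DDR2-plus 3, where the pineal and photoreceptor sum was highest at 200.5 CPM, Rbp3 was at its highest of that population, 87.9 CPM, and Rlbp1 at its lowest, 16.2 CPM. Rdh5 shares 25.6% of its exonic bases with Bloc1s1 on the same strand. Ttr, the plasma partner of RBP4 and a gene of the choroid plexus, had 84.0, 649, 1067, 1555 and 45.9 CPM in DDR2-plus, against 1.41, 6.28, 0.37, 8.70 and 0.374 CPM in PSC. The call of Ttr was lost under limma-voom (adjusted p = 0.18). Without PSC 4 its PSC mean was 2.11 CPM in place of 3.43 CPM. The choroid plexus markers summed to 33.0 to 135 CPM in DDR2-plus and 19.2 to 36.6 CPM in PSC. Of these 7 markers, 5 were higher, 1 was lower and 1 did not pass (Otx2 is also on the pineal and photoreceptor list). The lower one, Prlr, was 4.01-fold lower in DDR2-plus without overlap (edgeR adjusted p = 0.000901). Over all tested genes, 20.1% were called higher and 19% lower. The part of the choroid plexus markers in the Ttr result was not tested.

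Rbp7, a cellular retinol-binding protein gene named after its values were seen, was 13.4-fold higher at low levels, 1.09 ± 1.56 CPM in DDR2-plus libraries against 0.0779 ± 0.102 CPM in PSC libraries, with overlap (SD over 5 libraries each; edgeR adjusted p = 0.0328). That call was lost under limma-voom and when any of DDR2-plus 1, DDR2-plus 4, PSC 2, PSC 3, PSC 4 or PSC 5 was left out (adjusted p between 0.0515 and 0.158). Rdh11, a retinal reductase gene that many tissues use, was also higher in DDR2-plus, where it averaged 38.6 ± 5.97 CPM, and 19.7 ± 1.93 CPM in PSC libraries (SD over 5 libraries each; 1.96-fold; edgeR adjusted p = 4.39e-05). Lpl, the lipoprotein lipase gene, whose product helps tissues take up retinyl esters, averaged 48.5 ± 16.6 CPM in DDR2-plus libraries and 135 ± 45.7 CPM in PSC libraries, 2.79-fold lower (SD over 5 libraries each; edgeR adjusted p = 0.000721).

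Of the 11 tested genes on the list of Rarb and receptor partners, 3 rose, 4 fell and 4 did not pass. Over all tested genes, 39.1% were called, 20.1% as higher and 19% as lower. Rxrg, an RXR gene named after its values were seen, had 1.62 to 7.60 CPM in DDR2-plus libraries against 0.772 to 2.07 CPM in PSC libraries, with overlap, and was 3.84-fold higher (edgeR adjusted p = 0.00326). Rxra averaged 29.8 ± 2.10 CPM in DDR2-plus libraries against 37.9 ± 13.3 CPM in PSC libraries without a call, and Rxrb averaged 48.6 ± 3.47 CPM in DDR2-plus libraries against 62.6 ± 6.82 CPM in PSC libraries, 1.29-fold lower (SD over 5 libraries each; edgeR adjusted p = 0.161 and 0.00589). The coactivator genes Ncoa2 and Ncoa3 were 1.63-fold and 1.69-fold higher in DDR2-plus. The coregulator gene Nrip1 was 1.45-fold lower, and Dhrs4, a retinal reductase gene, was 1.29-fold lower (edgeR adjusted p between 0.00365 and 0.0434 for these 4 genes). Rxrb, Nrip1 and Dhrs4 lost their calls under library size alone (edgeR adjusted p = 0.412, 0.12 and 0.616), and Dhrs4 in 8 other settings as well.

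Genes of like pattern were sought for one gene of synthesis and one of breakdown among 8723 genes, by the smallest root mean square difference between log2 CPM profiles over the 10 libraries, each centred on its own mean. Nearest to Aldh1a2 were Acvrl1, Emilin2 and Agtr2, at differences of 0.34, 0.37 and 0.38 log2 units. Nearest to Cyp26b1 were Csrnp1, Junb and Atf3, at 0.13, 0.13 and 0.14 log2 units. The libraries fall into 2 populations, so such likeness includes the difference between these.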

How the data were processed

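The authors' deposited table holds raw whole-number counts per gene symbol in 10 libraries, with no normalization, per the file's values. Per the labels' protocols, cDNA was made from 1 ng of RNA by template switching, amplified, and made into libraries with a transposase kit that does not mark strand. The build mm10 and DESeq are named in the submitters' processing notes. The gene models, the aligner and the counter used were not given in the sources used here. Amplified reads are not independent molecules, so a limit from 3 counts covers counting error only.

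The whole table was fitted with edgeR 4.0.16 (R 4.3.3; TMM, filterByExpr, quasi-likelihood test, no covariates) and p-values were adjusted over all 15416 tested genes. CPM values were scaled by the TMM factors. The SE of a fold change was computed from its F statistic. Exact permutation tests used scipy 1.17.1. The test was checked on simulated counts. Alternatives were other scalings and filters, DESeq2 1.42.0, limma-voom (limma 3.58.1), the library number as a block and leaving out each library. Positions, exon lengths and overlaps came from GENCODE M21 (GRCm38, the build also called mm10), and promoter windows from RefSeq. None of the 10 retinoid genes shares over 10% of its exonic bases with another gene. No 2 libraries of a group agreed within sampling noise. The 10 genes and all lists were chosen with earlier results of these data known. All 10 genes were to be named, and of the pathway and response lists each called gene that averaged 10 CPM or more in either population, plus Rxra, Rxrb, Rarb, Cyp26a1 and Stra6. A few genes that this rule covers count in their lists but are not reported here. The markers of 15 tissues and cell types were examined, and those not named in the report are given in the closing section.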

Additional observations from a re-analysis of the deposited data

Results flagged for a closer look

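In 72 groups of 5 values, 3 held a library whose distance from the rest was large against the range of its group, and chance alone flags about 1 in 20 groups. Aldh1a3 was at 21.8 CPM in PSC 3, the highest of that group. Rbp3 was at 87.9 CPM in DDR2-plus 3, the highest of that group. Nrip1 was at 29.9 CPM in DDR2-plus 2, the lowest of that group.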

How the results depend on the processing

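Over 19 alternative settings, the calls of Aldh1a2, Rbp4, Crabp2, Rara, Rarg and Cyp26b1 kept their direction and their side of the threshold. Between 3 and 4 of the retinoid genes were called higher and between 3 and 4 lower. All genes gave 6022 calls in the main setting, 3096 higher and 2926 lower, and 6959 under library size alone, 5421 higher and 1538 lower. Under library size alone, 5 other pathway genes were called lower in place of 10, and 4 response genes higher and 6 lower in place of 1 and 8; leaving out 1 library gave between 1 and 2 response genes higher, with 2 reached without PSC 5. The log2 fold change of Aldh1a1 turned to 0.0040 under library size alone. That of Crabp1 turned to 0.14 under library size alone and lay between -1.03 and 0.13 when 1 library was left out, above 0 without DDR2-plus 1, 2 or 4 (0.09, 0.13 and 0.03) and without PSC 2 or 3 (0.01 and 0.07). The cause was not tested. The within-library differences held in direction and call in all settings run. Each DDR2-plus library correlated best with the PSC library of its own number, at correlations of deviations between 0.0289 and 0.0532. These were under the 0.1 set for pairing, so the main tests did not pair the libraries. Whether the shared numbers mark a shared origin is not settled by that rule. With the library number as a replicate block 5742 genes were called, 4 of the retinoid genes higher and 3 lower, since Aldh1a3 passed (adjusted p = 0.0332). Precision is limited for Stra8, Hoxb1 and other genes with few counts.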

Other observations

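Of all tested genes, 20.1% were called higher and 19% lower in DDR2-plus. The markers of tissues not described above were as follows. Of 7 tested neuron markers 6 were higher in DDR2-plus, with sums of 51.6 to 143 CPM there and 6.78 to 12.8 CPM in PSC. All 6 Schwann cell markers were higher, at 424 to 892 CPM in DDR2-plus and 38.4 to 95.6 CPM in PSC. Of 6 astrocyte markers 5 were higher and 1 lower, at 488 to 691 CPM in DDR2-plus and 647 to 865 CPM in PSC, and all 5 tested olfactory markers were higher. Of 6 osteoblast markers 4 were lower, at 24805 to 45179 CPM in DDR2-plus and 134644 to 156369 CPM in PSC. Of 9 suture and sorted cell genes 6 were lower and 1 higher, at 633 to 760.3 CPM in DDR2-plus and 1091 to 1129 CPM in PSC. Of 6 endothelial markers 2 were higher and 2 lower, at 21.9 to 40.2 CPM in DDR2-plus and 17.9 to 40.9 CPM in PSC. Macrophage and blood markers were at 12.0 to 25.4 CPM in DDR2-plus and 7.37 to 19.6 CPM in PSC with 1 of 4 tested higher, and epithelial markers at 18.5 to 75.9 CPM in DDR2-plus and 3.64 to 10.4 CPM in PSC with all 4 tested higher. Skeletal muscle markers were at 8.72 to 32.9 CPM in DDR2-plus and 5.86 to 19.7 CPM in PSC with 1 of 4 tested higher. The part of these tissues in the retinoid results was not tested.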
